A study of Mus musculus with 48 samples.

Results

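Ovariectomy (OVX) removes the ovaries and with them the main source of estrogens. Estrogens are known to restrain the production of B lymphocytes in bone marrow, and their receptors are present in many immune cells. The study used OVX female mice as a model of menopause in work on depression. Whole blood of OVX mice was compared here with that of sham-operated mice, both kept without stress. The comparison was defined by group label alone and used 12 of the 48 arrays of the series, 6 from control mice and 6 from OVX mice.

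The series holds medial prefrontal cortex (mPFC) and blood of the same mice in 4 groups of 6. Control mice had the sham operation and no stress, OVX mice had bilateral ovariectomy and no stress, CUMS mice had the sham operation and chronic ultra-mild stress, and OVX+CUMS mice had both. All were C57BL/6J females aged 17 weeks. RNA came from the pellet of centrifuged heparinized blood, which holds red cells, white cells and platelets, and was hybridised to 1-colour arrays with a Cy3 label. Hormone levels and the ovarian cycle stage of the sham-operated mice are not given in the sources used here. In bulk blood, fewer cells of a type and less RNA per cell cannot be told apart.

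The values are log2 signals from which each array's 75th percentile was subtracted, so that 0 is the 75th percentile of an array, and a difference of 1 is a 2-fold change. The 75th percentile itself lay between 81.3 and 132 in control mice and between 110.4 and 192 in OVX mice. Between 28106 and 30929 probes were well above background on the control arrays, against 30465 to 34838 on the OVX arrays. No spot was saturated. The 6 control arrays were hybridised on 1 slide, OVX mice 1 to 4 on a second slide and OVX mice 5 and 6, together with the OVX+CUMS mice, on another. Slide and group cannot be told apart with these 12 arrays. CUMS mice were on the first slide (2 arrays) and the second (4 arrays), so the second slide minus the first within the CUMS group (the CUMS slide difference) is given beside each list. Its part in the results was not tested. Over all genes its median was 0.08. On the first slide it rests on 2 arrays. One of them, CUMS mouse 2, was the dimmest blood array, with a 75th percentile of 54.9 and 23578 probes well above background. The value beside a list is the median of its genes, and single genes can differ from it in size and sign. Globin genes, which define red cells, made up 4.46 ± 0.41% of the summed signal in control mice and 4.02 ± 0.57% in OVX mice (SD, n = 6 each).

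A total of 25018 probes were well above background on the 12 arrays and were tested with limma. The signal of 8656 probes (34.6%) differed at a Benjamini-Hochberg adjusted p under 0.05. Of these, 4190 (16.7% of the probes tested) were higher and 4466 (17.9%) were lower in OVX mice. The groups did not overlap at 4396 probes (17.6%). Most differences were small, with a median size of 0.52 on the log2 scale among the probes called, and 1157 of them exceeded 1, of which 143 were higher and 1014 lower. Counted by gene, with the brightest probe for each of 13460 symbols, 2561 (19%) were higher and 2043 (15.2%) lower, with a median difference of 0.11 over all genes. The split depends on the scaling. Of 11557 probes called after scaling to the spike-in RNAs, 10245 were higher, and the median of all genes then moved to 0.53.

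Genes of B lymphocytes rose in OVX mice, as did genes of MHC class II, which present peptides to T cells. Of 17 B cell genes tested, 14 were higher, against the 19% of all genes given above. The groups did not overlap at 9 of the 17, against 2262 of all 13460 genes. The other 3, Spib, Fcrla and Cr2, were named after their values were seen and differed by 0.26 ± 0.15, 0.22 ± 0.10 and 0.19 ± 0.08 (SE) without passing the test. The median difference of the list was 0.40, against 0.11 for all genes. At an unadjusted p under 0.05, 15 B cell genes were higher. The mean level of the list in each mouse, set to 0 for the control mean, ran from -0.32 through a median of 0.05 to 0.18 in control mice and from 0.33 through 0.41 to 0.53 in OVX mice. Every OVX mouse was above every control mouse.

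Cd79b, a signalling chain of the B cell receptor, was the brightest gene of the list. Its normalized signal ran from 6.82 through a median of 7.19 to 7.37 in control mice, and from 7.45 through 7.54 to 7.69 in OVX mice. The groups did not overlap, and the difference was 0.39 ± 0.10 (log2, SE; adjusted p = 0.0087), or 1.31-fold. Ms4a1, which encodes the B cell surface protein CD20, ran from 4.99 through 5.42 to 5.74 in control mice and from 5.75 through 5.86 to 6.27 in OVX mice. OVX mice 5 and 6, which were on another slide than the other 4, were the highest, and the difference was 0.54 ± 0.14 (adjusted p = 0.0096). Vpreb3, which is expressed along the B lineage, had the largest difference of the list. It ran from 3.92 through 4.42 to 4.72 in control mice and from 4.77 through 5.09 to 5.30 in OVX mice, a rise of 0.69 ± 0.14 (adjusted p = 0.0025), or 1.61-fold. Tnfrsf13c, the receptor for the B cell survival factor BAFF, rose by 0.60 ± 0.14 (adjusted p = 0.0072), with a slight overlap of the groups. A second probe for it rose by 0.54 ± 0.11. Blk, a B cell kinase, rose by 0.52 ± 0.13 (adjusted p = 0.0082). Cd79a, Cd22, Fcer2a, Pax5, Ebf1, Bank1, Fcmr and Pou2af1 were also among the genes that rose, by 0.32 to 0.49.

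The probes behind the B cell result are shown by the 30 bases of each that hold most cytosines, because the cytosine content of a probe is taken up again with the genes that fell. Capitals mark runs of 3 or more cytosines, and there are none in these 2 windows. The Cd79b probe lies at chr11:106172780-106172839 and the Ms4a1 probe at chr19:11325367-11325426, both on the minus strand of mm9, the build given in the scanner files. An annotation of that build was not used here, so the exon or UTR is not given.
Cd79b: ctgcaaatggactcagaacacactggcttc
Ms4a1: gctgtgctttgagattctttccaaatggca
The first window covers bases 17 to 46 of the probe and the second bases 1 to 30. The whole probes hold 11 and 10 cytosines in 60 bases, below the median of 13 for all genes.

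Of 10 MHC class II genes, 8 were higher, against 19% of all genes, with a median of 0.35. The groups did not overlap at 6, against 2262 of all 13460 genes. H2-DMa, part of the protein that loads peptides onto class II molecules, ran from 2.38 through 2.57 to 2.77 in control mice and from 3.05 through 3.14 to 3.17 in OVX mice. The rise was 0.56 ± 0.08 (adjusted p = 0.00029). H2-DMb2 and H2-DMb1, its partner chains, rose by 0.49 ± 0.09 and 0.40 ± 0.10. Cd74, the invariant chain that accompanies class II molecules, ran from 6.00 through 6.25 to 6.38 in control mice and from 6.61 through 6.77 to 6.88 in OVX mice, a rise of 0.53 ± 0.09 (adjusted p = 0.00084). The class II chain gene H2-Ab1 ran from 8.32 through 8.5 to 8.61 in control mice and from 8.73 through 8.78 to 9.05 in OVX mice. Its brighter probe rose by 0.35 ± 0.09 (adjusted p = 0.0086), while a second probe differed by 0.18 ± 0.08 and did not pass. B cells, monocytes and dendritic cells all carry class II molecules. Ciita, the transcriptional activator of the class II genes, differed by -0.36 ± 0.23 (adjusted p = 0.22) and did not pass. It was named after its values were seen.

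**Figure D1:**
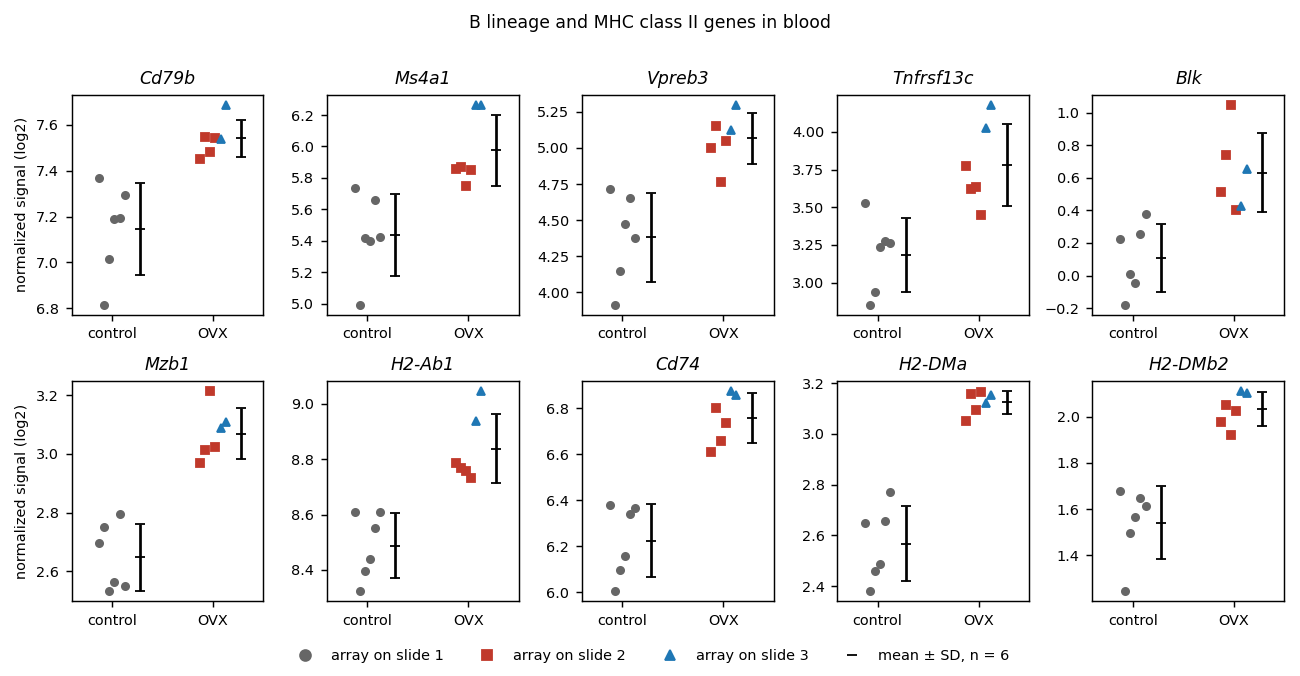
Normalized signal (log2, relative to the 75th percentile of the array) of 10 B lineage and MHC class II genes in control and OVX mice. Each point is 1 mouse, its shape and colour give the slide, and the bar beside each group is the mean ± SD of 6 mice. OVX mice on both of their slides lay above the control mice in 9 of the 10 panels, with overlap for Tnfrsf13c. The genes shown were picked among those that passed the test, and the groups did not overlap at 17.6% of all probes.

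Genes of plasma cells, which secrete antibody, moved the same way. Of 5 tested, 3 were higher, against 19% of all genes. Mzb1, a chaperone for immunoglobulin assembly, rose by 0.42 ± 0.08 (adjusted p = 0.0017) and Irf4, a transcription factor of plasma cell formation, by 0.45 ± 0.12 (adjusted p = 0.0095). Xbp1, which drives the secretory programme and is also on the list of estrogen targets, rose by 0.38 ± 0.09, but differed by -0.36 ± 0.40 when slide was fitted. Of 4 genes of B cell precursors none passed limma's test at either the adjusted or the unadjusted threshold, and their median was -0.004, with a CUMS slide difference of -0.068. The difference between this list and that of mature B cells was not itself tested.

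The slide values of these lists were as follows. The B cell median was 0.38 with the 4 OVX mice of the second slide alone and 0.47 with the other 2, with 10 genes higher each time. The MHC class II median was 0.30 (5 genes higher, 1 lower) and 0.51 (6 higher), and the plasma cell median 0.33 and 0.51 (3 higher each). The CUMS slide difference was 0.03 for B cell genes, 0.02 for MHC class II genes and 0.08 for plasma cell genes. The 2 CUMS arrays of the first slide lay apart, at 5.49 and 4.32 for Ms4a1 and at 6.91 and 6.26 for Cd79b. Small values of this difference are therefore uncertain and do not show that slide had no part. With slide as a block over the 24 blood arrays, the medians were 0.33 and 0.29, and none of the genes passed, because no probe of the 25018 did (1096 had an unadjusted p under 0.05). The median SE rose from 0.13 to 0.30 in that fit. Leaving out control mouse 2, the lowest for both lists, gave 14 B cell and 7 MHC class II genes. Under spike-in scaling the B cell median was 0.82, against 0.53 for all genes.

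**Figure D2:**
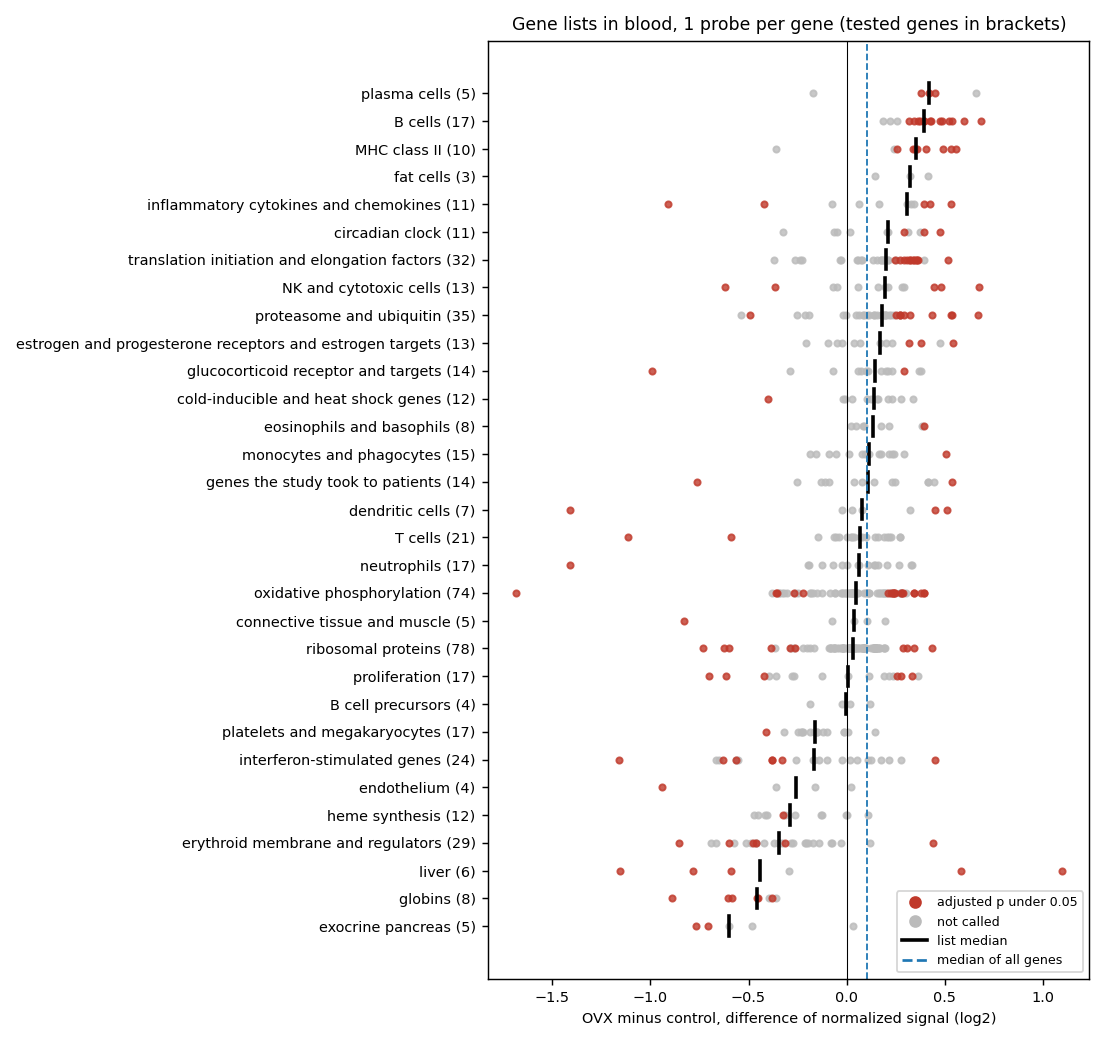
OVX minus control difference (log2) of the tested genes of 31 lists in blood, with 1 point per gene. Red points passed an adjusted p of 0.05, grey points did not, the black bar is the list median and the dashed line the median of all 13460 genes. The medians of plasma cell, B cell and MHC class II genes lay highest, and those of exocrine pancreas, globin and liver genes lowest.

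Globin genes were lower on this scale, while the share of other red cell genes that passed was near that of all genes. Of 8 globin genes, 6 were lower, against 15.2% of all genes, with a median of -0.45. Hba-a1, an adult alpha globin, ran from 12.11 through 12.32 to 12.78 in control mice and from 11.67 through 12 to 12.20 in OVX mice. The groups overlapped, and the fall was -0.38 ± 0.13 (adjusted p = 0.038). Hbb-b2, an adult beta globin, fell by 0.60 (SE 0.15, adjusted p = 0.0085) and Hbq1b, a theta globin, by 0.89 (SE 0.17, adjusted p = 0.0014). Globin copies are nearly identical, so their probes may share signal. Of 29 erythroid membrane and regulator genes, 5 were lower and 1 higher, with a median of -0.35. The count of those lower ran from 2 (without control mouse 4 or 5 or OVX mouse 5 or 6) to 10 (without OVX mouse 3), and was 2 with the OVX mice of the second slide and 8 with the other 2. Those lower included Add2, a membrane skeleton protein, at -0.85 ± 0.30, Bnip3l, which clears mitochondria from maturing red cells, at -0.46 ± 0.17, Xk, a membrane protein, at -0.48 ± 0.15, and Gata1, the erythroid transcription factor, at -0.31. Bcl11a, which represses fetal globin and is also expressed in B cells, was the gene that rose, by 0.44. Gata1 and Bcl11a were named after their values were seen. The mean signal of Xk was low, at 25.4.

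Of 12 heme synthesis genes 1 was lower. This was Abcb10, a mitochondrial transporter, at -0.33 ± 0.11. Alas2, the first enzyme of heme synthesis in red cells, ran from 11.45 through 11.69 to 12.24 in control mice and from 10.87 through 11.39 to 11.67 in OVX mice, and its difference of -0.40 ± 0.16 did not pass (adjusted p = 0.059). The red cell result depended on scaling and slide. The globin median was -0.07 after quantile normalization and -0.03 after spike-in scaling, with 2 and 1 genes lower, and the erythroid median turned to 0.07 after spike-in scaling. It was -0.28 for the OVX mice on the second slide and -0.78 for those on the other for globins. The CUMS slide difference was -0.18 for globins, -0.17 for the erythroid list and -0.16 for heme synthesis, and with slide as a block the globin median was -0.10. With 1 array left out, 2 to 7 globin genes were lower, with 2 without OVX mouse 2 or 5, 3 without control mouse 4 or 5 or OVX mouse 6, and 3 without control mouse 2, whose globin signal was the highest.

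Of 21 T cell genes tested, 2 were lower, against 15.2% of all genes. The list median was 0.07, against 0.11 for all genes (CUMS slide difference 0.14). Cd4, the coreceptor of helper T cells, ran from 4.98 through 5.36 to 5.62 in control mice and from 3.95 through 4.10 to 4.79 in OVX mice, a fall of -1.11 ± 0.15 (adjusted p = 0.00013). Cd8b1, a coreceptor chain of cytotoxic T cells, fell by 0.59 (SE 0.15, adjusted p = 0.0084). The list value does not give the slide differences of Cd4 and Cd8b1 themselves, whose part in the falls was not tested. The other 19 did not pass, and 1 of them had an unadjusted p under 0.05. Of 13 NK and cytotoxic genes, 3 were higher and 2 lower, against 19% and 15.2% of all genes. Their median was 0.19 (CUMS slide difference 0.02). Il2rb, the beta chain of the receptor for interleukins 2 and 15, rose by 0.48 ± 0.10 (adjusted p = 0.0037). The NK receptor genes Klre1 and Klra8 rose by 0.67 ± 0.20 and 0.44 ± 0.15, Klre1 with a low mean signal of 39.7. Prf1, which encodes the pore-forming protein perforin, ran from 2.87 through 2.95 to 3.00 in control mice and from 2.06 through 2.29 to 2.65 in OVX mice. It fell by 0.62 (SE 0.11, adjusted p = 0.00091). The list value does not give the slide difference of Prf1 itself, and its part in the fall was not tested.

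Among myeloid genes few passed. Of 17 neutrophil genes, 1 was lower, and the list median was 0.06, with a CUMS slide difference of 0.53 and medians of -0.10 and 0.32 for the OVX mice of the second and the other slide. The gene was Elane, the elastase of immature neutrophil granules, which ran from 5.12 through 5.19 to 5.42 in control mice and from 3.46 through 3.78 to 4.22 in OVX mice, or 2.66 times lower (-1.41 ± 0.13, adjusted p = 2.2e-05). In CUMS mice Elane was also lower on the second slide than on the first, by 1.07 (-1.07), and its part in the result was not tested. Of 15 monocyte and phagocyte genes, Clec4a3, a lectin receptor, was higher, by 0.51 ± 0.16, but it turned to -0.69 with slide as a block (CUMS slide difference of the list 0.66). Of 8 eosinophil and basophil genes, Il5ra, the interleukin 5 receptor chain, was higher, by 0.40 ± 0.13 (CUMS slide difference of the list 0.65). Of 7 dendritic cell genes, 2 were higher and 1 lower, against 19% and 15.2% of all genes (CUMS slide difference 0.14). Irf8, a transcription factor shared by dendritic cells, monocytes and B cells, rose by 0.51 ± 0.09 and Bst2, a marker of plasmacytoid dendritic cells that interferon induces, by 0.45 ± 0.12. Zbtb46, a transcription factor of conventional dendritic cells, fell by 1.41 (SE 0.15, adjusted p = 3.3e-05). The list value does not give the slide difference of Zbtb46 itself, and its part in the fall was not tested. Of all probes called lower in OVX mice, 93.9% were also lower on the second slide in CUMS mice. Of 17 platelet genes, Selp, a platelet adhesion molecule, was lower, by -0.41 ± 0.12, with 0.010 after spike-in scaling (CUMS slide difference of the list 0.34). Without control mouse 2, whose platelet list level was -1.0 against 0.01 to 0.41 in the other control mice, 4 platelet genes were lower.

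Estrogen acts through the nuclear receptors ESR1 and ESR2 and the membrane receptor GPER1. The 4 probes for Esr1 and the 3 for Pgr, the progesterone receptor that estrogen induces, were well above background on at most 1 control and 1 OVX array each, and were not tested. Esr2 ran from 2.12 through 2.91 to 3.36 in control mice and from 2.98 through 3.32 to 3.72 in OVX mice. The groups overlapped, and the difference of 0.48 ± 0.20 did not pass (adjusted p = 0.084). Gper1 differed by -0.02 ± 0.32 (adjusted p = 0.96), with values from -0.15 to 0.45 in control mice and from -1.17 to 0.92 in OVX mice. Its OVX mice split by slide, with a difference of 0.50 for the 4 on the second slide alone. Of 13 receptors and estrogen targets tested, 3 were higher, against 19% of all genes, with a median of 0.17 and a CUMS slide difference of 0.09. The count was 1 without control mouse 2 or 3 or OVX mouse 2, 4 without control mouse 4, and 1, with 2 lower, for OVX mice 5 and 6 alone. Beside Xbp1 these were Igfbp4, an IGF-binding protein, at 0.54 ± 0.19 (adjusted p = 0.045), and Nrip1, a corepressor of nuclear receptors, at 0.32 ± 0.10 (adjusted p = 0.032). At an unadjusted p under 0.05, 4 were higher.

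Of 11 circadian clock genes, 3 were higher, against 19% of all genes. The list median was 0.21, with a CUMS slide difference of -0.037. Csnk1d, the kinase that phosphorylates PER proteins, rose by 0.48 ± 0.10 (adjusted p = 0.0029), Cry2, a clock repressor, by 0.40 ± 0.12 (adjusted p = 0.024) and Per1, another repressor, by 0.29 ± 0.09 (adjusted p = 0.018). The groups did not overlap at these 3 genes, against 17.6% of all probes. Second probes for Csnk1d and Cry2 differed by 0.14 ± 0.14 and -0.12 ± 0.08 and did not pass. Of 14 glucocorticoid receptor and target genes, Per1 was the one that rose and Mt1, a metallothionein, the one that fell (CUMS slide difference of the list 0.18). Mt1 ran from 2.75 through 2.97 to 3.42 in control mice and from 1.73 through 1.96 to 2.29 in OVX mice. It differed by -0.99 ± 0.14 (adjusted p = 0.00015). The list value does not give the slide difference of Mt1 itself, and its part in the fall was not tested. Of 12 cold-inducible and heat shock genes, Hspa4l, a chaperone, was lower, by -0.40 ± 0.08, with 0.018 after spike-in scaling (CUMS slide difference of the list 0.12).

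Translation factors were higher in part. Of 32 initiation and elongation factors, 12 were higher, against 19% of all genes, with a median of 0.20 and a CUMS slide difference of 0.15, and none was lower by limma at the adjusted or the unadjusted threshold. Eif4a1, the RNA helicase of initiation, rose by 0.52 ± 0.09 and Eif6, a factor of the large ribosomal subunit, by 0.36 ± 0.09. Both turned with slide as a block, to -0.15 and -0.052, and the list median was then 0.03. Without OVX mouse 2 or control mouse 5, 6 were higher, 7 without control mouse 3, and 5 with OVX mice 5 and 6 alone. Of 35 proteasome and ubiquitin genes, 9 were higher and 1 lower, not far from the 19% of all genes, with a median of 0.18 and a CUMS slide difference of 0.11. Psma6, a subunit of the proteasome core, ran from 0.61 through 0.85 to 1.15 in control mice and from 1.48 through 1.55 to 1.66 in OVX mice, a rise of 0.67 ± 0.10 (adjusted p = 3e-04). The regulatory subunits Psmd3 and Psmc4 rose by 0.54 ± 0.14 and 0.53 ± 0.08, and Ube2l6, the conjugating enzyme for ISG15 that is abundant in red cells, fell by 0.49 (SE 0.14). Of 74 oxidative phosphorylation genes, 14 were higher, the share of all genes, and 5 lower, with a median of 0.05 and a CUMS slide difference of 0.03. The counts were 30 and 1 after quantile normalization and 36 and 1 after spike-in scaling, 6 were higher with the OVX mice of the second slide alone, and 6 to 16 with 1 array left out, the fewest without control mouse 4. The largest difference of the list was that of Atp5j2, an ATP synthase subunit, whose brightest probe ran from 9.09 through 9.38 to 9.83 in control mice and from 7.16 through 7.65 to 8.28 in OVX mice. It fell by 1.69 (SE 0.18, adjusted p = 3.6e-05), and its CUMS slide difference was -1.46. A second probe under that symbol differed by -0.05 ± 0.09 and did not pass. The scanner files place the first probe on chromosome 5 and the second on chromosome 9, so they may not measure the same transcript. Cyc1 of complex III and Ndufb7 of complex I rose by 0.39 ± 0.09 and 0.38 ± 0.08, and turned to -0.065 and -0.086 with slide as a block.

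The 78 cytosolic ribosomal protein genes had a median of 0.03 and a CUMS slide difference of 0.10. Of these, 4 were higher and 6 lower, against 19% and 15.2% of all genes. These counts rest on the scaling, with 56 higher and 2 lower after quantile normalization (median 0.33), 34 higher and none lower after spike-in scaling (median 0.46, against 0.53 for all genes) and 20 and 4 with normexp background. Rps29, a protein of the small subunit, ran from 9.19 through 9.26 to 9.39 in control mice and from 8.70 through 8.85 to 9.10 in OVX mice. Its brightest probe fell by 0.39 (SE 0.09, adjusted p = 0.0054), while its 2 other probes differed by -0.20 ± 0.08 and -0.15 ± 0.08 and did not pass. The same probe differed by 0.034 after spike-in scaling. Rpl14 rose by 0.44 ± 0.09 and Rpl28, Rps15 and Rps21 fell by 0.62, 0.73 and 0.60. The fall of Rps15 and Rpl28 rested on 1 probe each, as second probes differed by 0.19 ± 0.08 and 0.06 ± 0.08 without passing.

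Of 24 interferon-stimulated genes tested, 6 were lower, against 15.2% of all genes, and 1, Bst2, was higher, with a median of -0.17 and a CUMS slide difference of 0.14. The count of those lower ran from 3 to 10 with 1 array left out. It was 3 without control mouse 2, 3 or 6 or OVX mouse 2, 4 or 5, and 10 without OVX mouse 3. Isg15, a ubiquitin-like protein, ran from 6.64 through 7.12 to 8.35 in control mice and from 5.36 through 5.86 to 7.62 in OVX mice. The groups overlapped through OVX mouse 3, and the fall was -1.16 ± 0.35 (adjusted p = 0.022). Ifit1, an RNA-binding antiviral protein, and Usp18, which removes ISG15, fell by 0.63 (SE 0.17) and 0.56 (SE 0.16). After spike-in scaling the list median was 0.25, with 4 genes higher and 1 lower. Of 11 inflammatory cytokines and chemokines tested, 3 were higher and 2 lower, against 19% and 15.2% of all genes. The median difference was 0.31, the median signal 58.6 and the CUMS slide difference 0.28. Csf1, the growth factor of macrophages, was the brightest. It ran from 3.63 through 3.89 to 4.18 in control mice and from 2.74 through 2.99 to 3.14 in OVX mice. It differed by -0.91 ± 0.11 (adjusted p = 6.3e-05). The list value does not give the slide difference of Csf1 itself, and its part in the fall was not tested. Tnf rose by 0.43 ± 0.11 and turned to -0.059 with slide as a block, and Il10 fell by 0.42 (SE 0.11). Both had a signal near background, at a mean of 32.9 for Tnf and 31.2 for Il10. Of 17 proliferation genes, 3 were higher and 3 lower, near the 19% and 15.2% of all genes. Their median was 0.01 and their CUMS slide difference -0.079. Mcm7, of the replicative helicase, rose by 0.33 ± 0.10, while Tyms, the thymidylate synthase, Ccna2, a cyclin, and Birc5, the mitotic protein survivin, fell by 0.70, 0.62 and 0.42.

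Markers of tissues that blood could carry over were mostly not measured. Of the list genes on the array, 3 of 10 for fat cells, 5 of 13 for exocrine pancreas, 4 of 12 for endothelium, 5 of 13 for connective tissue and muscle and 6 of 10 for liver were well above background on the 12 arrays. Their CUMS slide differences were 0.32, -0.12, -0.22, -0.26 and -0.12. None of the fat cell genes passed, with 1 higher at an unadjusted p under 0.05. The pancreatic enzymes Ctrb1 and Pnliprp1 were lower, by -0.77 ± 0.19 and -0.71 ± 0.13, Kdr, an endothelial growth factor receptor, by -0.94 ± 0.14 and Tagln, a smooth muscle protein, by -0.83 ± 0.14. Of the liver genes, Apoa2, Cyp2e1 and Apoc3 were lower, by -1.16 ± 0.14, -0.78 ± 0.19 and -0.59 ± 0.11, while Ahsg was higher, by 1.10 ± 0.32, and turned to -0.079 with slide as a block. Serpina1a, named after its values were seen, was the other liver gene that was higher. Mean levels of the endothelial list ran from -0.26 to 0.14 in control mice and from -0.50 to -0.21 in OVX mice. Of 14 genes that the study carried forward to patients, Styxl1 was higher and Slc36a1 lower, by -0.76 ± 0.10, with a second Slc36a1 probe at 0.34 ± 0.21. The CUMS slide difference of that list was 0.17. In mice, the study took genes that differed from control in OVX+CUMS mice but not in OVX or CUMS mice. The list was thus chosen partly for showing no difference in the comparison made here, on these same mice, so it is no independent evidence.

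The largest differences were mostly at probes whose values also differed between slides within the CUMS mice. Among probes with a gene symbol that passed the test and whose groups did not overlap, the 8 with the largest rises, Sfrp4, Abcg4, 4833427F10Rik, Fat2, LOC552909, Sycp2l, Lipo4 and Wfdc12, were dim, with a mean signal of 34 to 109.8, and rose by 1.35 to 1.74. Sfrp4, a secreted antagonist of Wnt, ran from -2.74 through -2.50 to -2.18 in control mice and from -1.19 through -0.68 to -0.39 in OVX mice (1.74 ± 0.18, adjusted p = 2.8e-05). In CUMS mice, these 8 probes were higher on the second slide than on the first by 0.82 to 2.21, and with slide as a block they differed by -0.72 to 0.57. Abcg4, a sterol transporter, had a brighter probe that fell by 0.64 (SE 0.13).

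Of such genes with a signal over 1000, the 8 largest rises were smaller, at 0.63 to 0.85, and 3 of them belonged to the B cell and MHC class II genes. Beside Vpreb3 these were Cd72, a B cell coreceptor, which ran from 2.51 through 2.88 to 3.18 in control mice and from 3.47 through 3.52 to 3.79 in OVX mice (0.68 ± 0.11, adjusted p = 0.00054), and a second probe of H2-Ob, an inhibitor of peptide loading, at 0.66 ± 0.09 (adjusted p = 0.00013). A second Cd72 probe rose by 0.50 ± 0.12, and the brighter probe of H2-Ob differed by 0.24 ± 0.11 and did not pass. The others were Clic1, a chloride channel protein, LOC100505358, Map3k1, a kinase of the stress-activated pathways, Chst3, a sulfotransferase, and B9d2, a ciliary protein. Both tested probes of Map3k1 rose, by 0.73 ± 0.11 and 0.60 ± 0.11. With slide as a block these 8 differed by 0.05 to 0.75, and in OVX+CUMS mice they were higher than in CUMS mice by 0.44 to 0.70.

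The 8 largest falls under the same limits were at Lcn12, Mc3r, Usp15, Fxyd1, Epp13, Fam24b, Th and Rtp2, at -2.27 to -1.95. Among bright probes Ntrk2, Rgs7 and Scgb2b20 followed. Lcn12, a lipocalin known from the epididymis, ran from 7.84 through 8.09 to 8.46 in control mice and from 5.2 through 5.54 to 6.93 in OVX mice, or 4.81 times lower (-2.27 ± 0.29, adjusted p = 1e-04). The 4 OVX mice on the second slide had a mean of 5.37 and the 2 on the other slide 6.82. In CUMS mice Lcn12 had a mean of 8.58 on the first slide and 6.31 on the second, and it was 7.37 in the OVX+CUMS mice. The neurotrophin receptor gene Ntrk2 fell by 1.94 (SE 0.22), with a difference of -1.85 between the slides of the CUMS mice. Th, the tyrosine hydroxylase of catecholamine synthesis, fell by 1.98 (SE 0.24), with -1.80 between those slides. Mc3r, a melanocortin receptor, differed from these. It ran from 2.46 through 2.67 to 4.98 in control mice and from 0.08 through 0.98 to 1.72 in OVX mice (-2.16 ± 0.42, adjusted p = 0.0017), its slide difference in CUMS mice was 0.13, and with slide as a block it differed by -2.44 ± 0.93. Its value in control mouse 2 was the highest. The 2 CUMS mice of the first slide were at 2.00 and 3.32. Usp15, a deubiquitinase, had a brighter second probe that fell by 0.52 (SE 0.19), and the other Fam24b probes differed by -0.25 ± 0.17 and 0.19 ± 0.13.

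**Figure D3:**
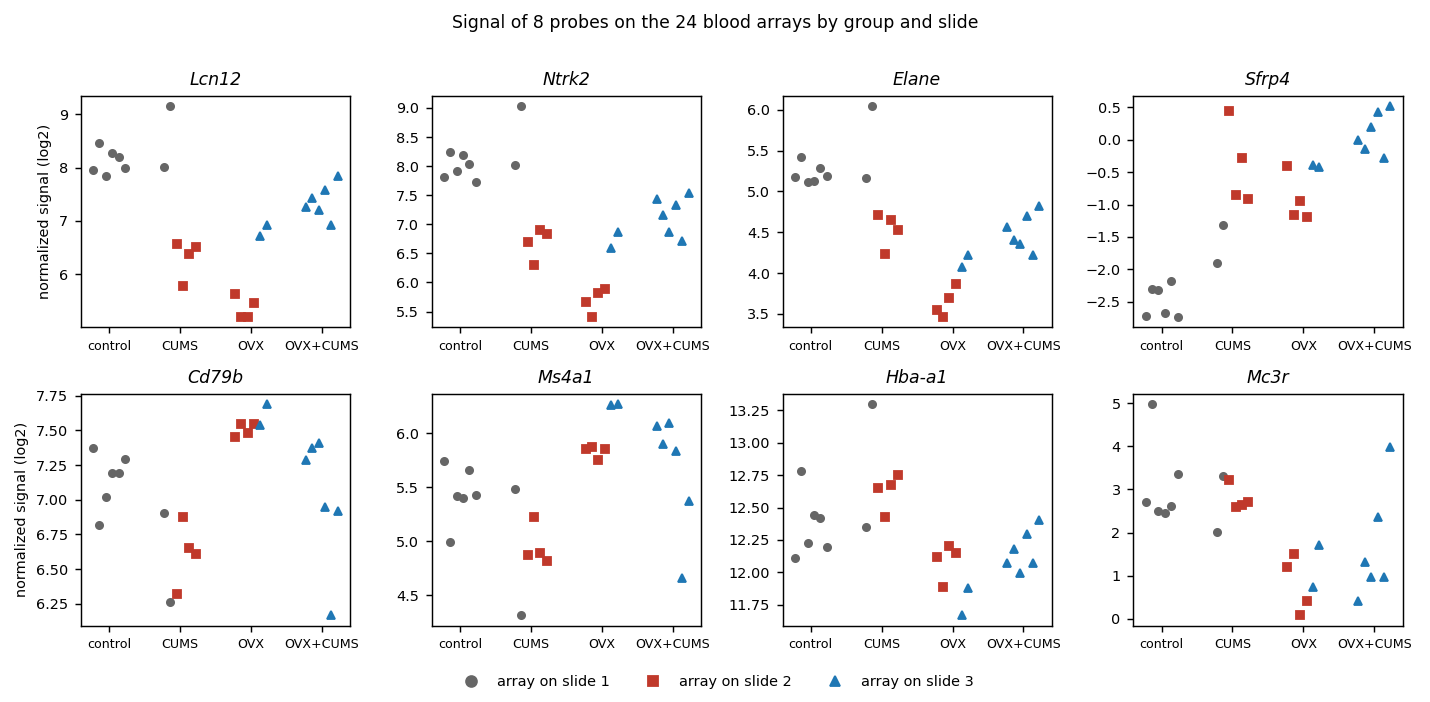
Normalized signal (log2) of 8 probes on the 24 blood arrays, by group, with 1 point per mouse and the slide given by shape and colour. Lcn12, Ntrk2 and Elane were lower and Sfrp4 higher on the second slide than on the first within the CUMS mice. Cd79b, Ms4a1 and Mc3r differed there by 0.03, 0.05 and 0.13. The 2 CUMS mice of the first slide ran from 6.26 to 6.91, 4.32 to 5.49 and 2.00 to 3.32 for these genes.

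The cytosine content of the probes was examined because several of the largest falls were at cytosine-rich probes. Those of Lcn12, Th and Fxyd1 held 21, 20 and 20 cytosines in 60 bases. Ntrk2 and Atp5j2, which also fell, had probes with 13 and 15, against a median of 13 for all genes. Windows of 30 bases are shown for 3 genes that fell and for the second probe of Rps15, which did not pass, with runs of 3 or more cytosines in capitals.
Lcn12: cctgccagtagagcctcaCCCtgcctctgc
Elane: gctCCCCCCtctaccagagacctctccatt
Rps15, lower: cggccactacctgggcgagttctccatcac
Rps15, second probe: tcacctaccttggcgtagacctcgaccaac
The Lcn12 probe lies at chr2:25346380-25346439 on the minus strand and the Elane probe at chr10:79350902-79350961 on the plus strand of mm9, and the windows cover bases 11 to 40 and 1 to 30. The Rps15 probes lie at chr10:79756716-79756775 and, across a splice junction, between 79755554 and 79756394 on the plus strand. They hold 19 and 21 cytosines. The windows cover bases 8 to 37 and 7 to 36.

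Over all probes tested, the median difference was 0.15 for probes with 6 to 10 cytosines in 60 bases and 0.10 for those with 11 to 15. It was -0.37 for the 1103 probes with 21 to 25 and -0.86 for the 135 probes with more. Of these 135, 89.6% were lower in OVX mice, against 17.9% of all probes. Probes with over 25 cytosines were also lower on the second slide than on the first in CUMS mice, with a median of -0.62, and differed by -0.26 with slide as a block. Probes for noncoding regions, which hold more cytosines, were lower in 31% of 5062 cases, against 12.6% of 15339 probes for RefSeq transcripts. The motif CCCTCCC, chosen after the values were seen, was on 241 probes (0.963% of those tested), of which 173 were lower and 5 higher, with a median of -0.72. Its reverse complement was on 117 probes, of which 30 were lower and 11 higher. Other motifs were counted too. ACCCTGCC was on 50 probes, 21 lower and 1 higher, and CTGCCTC on 284, 134 lower and 19 higher. Both lie in the Lcn12 window shown above, and Lcn12 was named for its fall. Their reverse complements were on 21 probes, 4 lower and 8 higher, and on 117 probes, 19 lower and 28 higher. A GAA repeat of 18 bases was on 44 probes, 19 higher and 0 lower. The share of cytosines of the B cell probes, with a median of 14, was close to that of all genes.

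**Figure D4:**
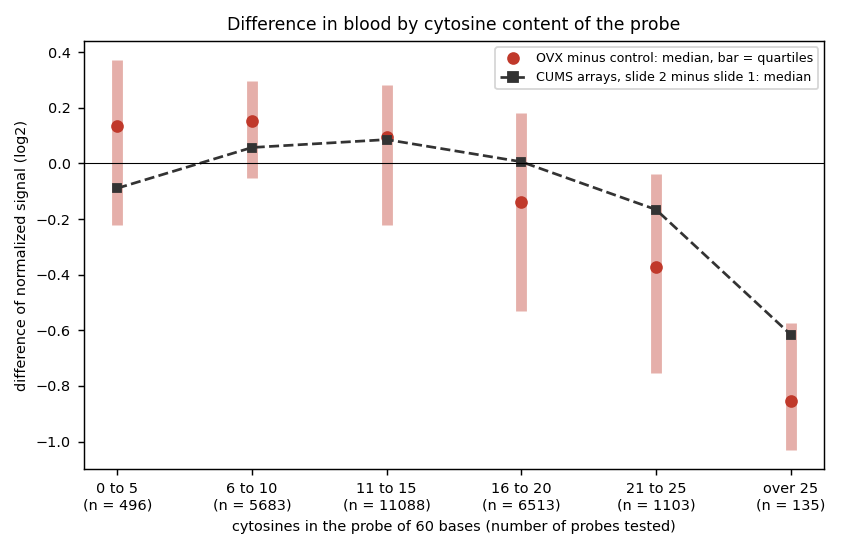
Median difference of normalized signal (log2) by the number of cytosines in the probe. Red points and bars are the OVX minus control median and quartiles, and black squares are the median of the second slide minus the first within CUMS mice. Both were lower with each step above 11 to 15 cytosines, to -0.86 and -0.62 for probes with over 25, while the CUMS median was -0.089 for probes with 0 to 5.

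Across the 25018 probes, the OVX minus control difference and the slide difference of the CUMS mice, which share no mouse, had Pearson's r = 0.70 and Spearman's rho = 0.63. These are correlations across probes, which are not independent. Of the probes called higher, 87.5% were also higher on the second slide in CUMS mice, against 55.5% of all probes, and 93.9% of those called lower were lower there. The part of slide in the result was not tested beyond these values.

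Some probes were above background in 1 group alone. Of 55681 probes on the array, 44 were well above background on the 6 OVX arrays and on no control array, and 3 the other way. Of the 44, 21 had a gene symbol and 20 were noncoding regions. A higher OVX level was fixed by the rule that picked these probes, so their direction is not a result. With a symbol, the largest lower bounds were 2.14-fold for Zfp454, a zinc finger gene, 2.12-fold for Agbl3, a deglutamylase, and 2.02-fold for Evx2, a homeobox gene. Their signals were low, at 16.3 to 44.1, 14.8 to 60.9 and 17.1 to 54.6 on the OVX arrays. These bounds set the OVX mean against the lowest signal that was well above background on each control array, so the control level itself is a bound. The 75th percentile was higher on the OVX arrays, as given above.

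The same contrast was available in stressed mice and in the cortex. The CUMS and OVX+CUMS arrays shared no slide, so slide and group cannot be told apart within the stressed mice either. The effect of OVX differed between non-stressed and stressed mice at 175 of the 25018 probes (0.699%), with an interaction adjusted p of 0.0497. Among the genes that passed between OVX and control mice and are named here, these were Lcn12, Fxyd1, Epp13, Th, Usp15 and Rps21. Their effect was higher under stress by 2.57, 2.27, 1.98, 1.97, 2.91 and 1.15. They were named for large falls between control and OVX mice, and the interaction reuses those arrays. The choice therefore favoured a higher effect under stress, and its direction is not a result. The interaction count was 0 under several alternatives, which are listed with the dependence on processing. For B cell genes the median OVX effect was 0.46 under stress and 0.40 without, and none of the 17 passed the interaction test. For MHC class II genes it was 0.44 and 0.35, with Ciita the 1 gene that passed. For globins it was -0.65 and -0.45. In OVX+CUMS mice, the mean of Cd79b was 7.02, against 6.58 and 6.62 on the 2 slides of the CUMS mice. The groups overlapped, from 6.17 to 7.41 in OVX+CUMS mice, and from 6.26 to 6.91 and 6.32 to 6.88 on those slides. Ms4a1 overlapped too, from 4.66 to 6.09 against 4.32 to 5.49 and 4.81 to 5.23.

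In the mPFC of the same mice, 9595 of 20881 probes (46%) differed between OVX and control mice, and blood and mPFC effects differed at 2925 probes (14%). The cortex arrays were on slides of their own with the same layout, so slide and group cannot be told apart there either. H2-Ob rose by 0.66 in blood and differed by -1.08 in mPFC, and Rgs7 and Ntrk2, which fell in blood, differed by 0.16 each in mPFC. These genes were named for their large differences in blood.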

How the data were processed

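Total RNA of blood was labelled with Cy3 and hybridised to 8x60K mouse arrays. The authors quantified the scans with Feature Extraction 10.7.3.1, and the deposited files hold background-subtracted intensity per spot. The values deposited by the authors as log2 were scaled to the 75th percentile in GeneSpring and served as an alternative. Here the log2 of the processed signal minus each array's 75th percentile was taken, outlier and control spots were left out, and spots of a probe were averaged. Probes well above background on all 12 arrays entered a limma fit (limma 3.58.1, R 4.3.3) with Benjamini-Hochberg adjustment at 0.05, on the 2 groups alone. A 24-array fit gave the interaction and the slide block. Symbols came from the files and a RefSeq table (26762 of 28390 RefSeq probes matched). In simulated data for OVX against control, 100 of 25018 probes were changed by 1 and 100 by 0.5 (log2), with independent noise and no slide difference. Of these, 81% and 37% were recovered. In the data 34.6% of the probes were called, so these rates are not those of the comparison itself. Named genes were the 8 largest differences each way, the same with a signal over 1000, the largest and brightest of each list, and fixed receptors. The members and lists were chosen with earlier results of these data known. Separate animals are replicates. The number of arrays limits the precision. Alternatives covered background, scaling, filters, model, slide, cytosine content and each array left out. Some genes of the lists are counted but not reported here by name.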

Additional observations from a re-analysis of the deposited data

Results flagged for a closer look

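In 272 groups of 6 arrays (the named probes and the list levels of each group), 22 held a mouse apart from the others by Dixon's test, where chance flags about 1 in 20 groups. Control mouse 2, which also stood apart on the first principal component (-77.8, against -32.5 to -18.9 in the other control mice), accounted for most of them. It was low for Map3k1 (3.18), Psmd3 (2.75), Csnk1d (3.49), Cry2 (-0.18) and Ndufb7 (3.52), and high for Gper1 (0.45), Apoc3 (0.67), Rps15 (9.47), Apoa2 (5.32) and Mc3r (4.98). Among list levels it was low for platelet genes (-1.0) and clock genes (-0.30) and high for heme synthesis (0.53) and liver genes (0.43). Control mouse 1 was high for Klre1 (-1.22) and the ribosomal list (0.11) and low for Tagln (3.71). OVX mouse 2 was high for Nrip1 (1.27) and the T cell list (0.16) and low for Rpl28 (7.76). OVX mouse 3 was high for the interferon-stimulated genes Ifit1 (0.56) and Isg15 (7.62).

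The effect of OVX differed between non-stressed and stressed mice (effect under stress minus effect without, log2) by 2.57 for Lcn12, 2.27 for Fxyd1, 1.98 for Epp13, 1.97 for Th, 2.91 for Usp15 and 1.15 for Rps21, each at a limma adjusted p of 0.0497. In neither contrast did the groups share a slide. These genes were named for large falls on the control and OVX arrays that the interaction reuses, so the direction of the difference is not a result. With slide as a block 0 probes passed the interaction test, and the part of slide was not tested.

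The effect of OVX differed between blood and mPFC (blood minus mPFC, log2) at a limma adjusted p under 0.05 for 32 of the named probes. Among all 20881 probes compared, 14% passed. Most named probes were picked by their difference in blood, and the contrast reuses those blood values. Their number and direction are therefore not independent evidence of a tissue difference. Bright rises gave 1.74 for the MHC class II gene H2-Ob and 0.53 for Map3k1. The dim rises gave 1.91 for Sfrp4, 1.66 for Abcg4, 1.51 for Fat2 and 1.98 for LOC552909, and Psma6 and Eif4a1 gave 0.45 and 0.41. Among the falls the values were -2.09 for Rgs7, -2.10 for Ntrk2, -2.11 for Th, -1.88 for Fxyd1, -1.83 for Lcn12, -1.65 for Mc3r, -1.56 for Fam24b and -1.34 for Scgb2b20. Genes of ribosome, mitochondria and ubiquitin gave -1.04 for Rps15, -0.80 for Rpl28, -0.45 for Rps29, -1.89 for Atp5j2 and -0.44 for Ube2l6. Erythroid and proliferation genes gave -0.68 for Bnip3l, -0.99 for Add2, -0.87 for Ccna2 and -0.59 for Birc5. The others were Zbtb46 (-1.52), Csf1 (-1.10), Mt1 (-1.01), Cyp2e1 (-0.92), Apoa2 (-0.70), Hspa4l (-0.45) and Slc36a1 (-0.42).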

How the results depend on the processing

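The count of probes changed by OVX (8656) stayed within 1.5 times under other background corrections, scalings, filters and the deposited values (6186 to 11557), and between 6721 and 9488 with 1 array left out. It was 5697 in a fit of 4 groups, 5596 with an analysis of variance and Tukey comparison, 3791 with slide as a random block, 0 with slide as a fixed block and 4765 with 1 probe per symbol. Replicate numbers did not pair the blood arrays of the 2 groups (correlations of deviations from -0.20 to 0.19), and the replicate block gave 6199. The interaction count (175) was 988 with normexp, 366 with quantile normalization and 295 with a filter over 24 arrays, and 0 with spike-in scaling, the deposited values, no filter or a slide block. It ran from 0 to 1978 with 1 array left out, with 0 without any single control or OVX+CUMS mouse and 1978 without CUMS mouse 2. The tissue difference (2925) was 12303 with spike-in scaling and 1796 with no filter, and ran from 1981 to 3211 with 1 array left out. Of the 102 named probes called, 16 lost the call with at least 1 array left out. These included Igfbp4, Clec4a3, Klra8, Cry2, Il5ra, Nrip1, Abcb10, Hba-a1, Birc5, Hbb-bt, Bnip3l, Xk, Hbb-y, Rps21 and Add2, and the array whose omission cost most of them, 13, was OVX mouse 2. Cry2 lost its call without OVX mouse 2 alone and Xk without control mouse 5 alone.

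Some named genes changed sign. With slide as a fixed block the differences were -0.72 for Abcg4, -0.55 for LOC552909, -0.25 for Sycp2l, -0.079 for Ahsg, -0.15 for Eif4a1, -0.69 for Clec4a3, -0.059 for Tnf, -0.065 for Cyc1, -0.36 for Xbp1, -0.086 for Ndufb7, -0.052 for Eif6, -0.072 for Nrip1, 0.40 for Gper1, 0.093 for Abcb10, 0.071 for Hbb-b2 and 0.24 for Add2. With spike-in scaling they were 0.40 for Gper1, 0.095 for Abcb10, 0.043 for Hba-a1, 0.034 for Rps29, 0.018 for Hspa4l, 0.017 for Alas2 and 0.010 for Selp. Quantile normalization gave 0.031 for Alas2 and 0.017 for Hbb-bt. Gper1 was 0.0073 with normexp, 0.010 with the percentile over tested probes, 0.50 with the OVX mice of the second slide, 0.055 without control mouse 2, 0.22 without OVX mouse 5 and 0.15 without OVX mouse 6. Rps21 was 0.058 with the 2 other OVX mice. The cause was not tested. Signal over background limited the test to 25018 of 55681 probes.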
